A study of Mus musculus with 12 samples.

Results

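Aminoacyl-tRNA synthetases were followed across the livers of mice given c-MET/β-catenin or an empty vector and fed a chow or a low-protein diet. They were taken by symbol: genes whose mouse symbol has a single amino acid letter followed by ars, with or without a closing 1 or 2, together with Farsa, Farsb and Eprs. This gave 37 of the 27179 genes in the count table, of which 20 were cytosolic and 17, with symbols ending in 2, mitochondrial. All 37 are annotated as protein coding and all 37 passed the filter on low counts. Within the cytosolic enzymes, 8 belong to the multi-synthetase complex (Eprs, Iars, Lars, Mars1, Qars, Rars, Kars and Dars) and 12 do not.

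RNA was sequenced in bulk from snap-frozen livers of male mice, 1 library per mouse, in 4 groups of 3. Their strain is given in more than one way by the study, as C57/Bl3 in its methods and as a mixed 129/Ola and C57BL/6 background in its results. Mice received the chow diet (CD) or the low-protein diet (LPD) from 1 week before hydrodynamic tail vein injection until harvest. The injected plasmids carried either no oncogene (Vec, labelled WT in the titles) or human c-MET with ΔN90-β-catenin, which lacks the N-terminal part that targets β-catenin for degradation, together with the Sleeping Beauty transposase that inserts them. All 4 groups were harvested when the CD-fed c-MET/β-catenin mice reached their end point, so tumor burden and diet were not set independently. The labels give hepatocyte as the cell type, but the extract was whole liver tissue and only a fraction of hepatocytes takes up the plasmids, so the libraries mix tumor, surrounding hepatocytes and other cells. In such bulk samples, fewer cells of a type and less RNA per cell cannot be told apart.

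Each aminoacyl-tRNA synthetase joins an amino acid to its matching tRNA, the step that supplies the ribosome with charged tRNA. Most cells hold separate enzymes for cytosolic protein synthesis and for the translation of the few proteins encoded by mitochondrial DNA, both sets being encoded in the nucleus, whereas Gars and Kars each give both forms and are counted here with the cytosolic enzymes. Uncharged tRNA activates the kinase Gcn2 (Eif2ak4), which phosphorylates eIF2α and raises the translation of the transcription factor Atf4. Several cytosolic synthetases and amino acid synthesis enzymes are known Atf4 targets.

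Depth was similar among libraries, with 19476209 to 31990267 counts in each. Hepatocyte markers were abundant in all groups, with a summed level of 80900.1 to 137479.5 counts per 1000000 (CPM, after TMM scaling of library sizes) for 6 genes. Both CD groups held libraries unlike the others of their group. CD Vec replicate 2 had Atf4 at 88.2 CPM against 53.1 and 43.5 in the other CD Vec libraries, with a chi-square per gene of 160.8 and 92.2 against them, beside 70.4 between them. CD c-MET/β-catenin replicate 1 differed from replicates 2 and 3 by 136.4 and 154.3, beside 44.8 between those, and replicate 3 differed from both in ribosomal RNA and in interferon and stellate cell markers, with values given below. Fits without each of these libraries are given beside the synthetase results. The dataset numbers in the column headers fall into 3 runs, and 1 of these runs holds only 2 CD c-MET/β-catenin libraries, replicates 1 and 2. Another holds only Vec libraries, replicates 1 and 2 on CD and replicate 1 on LPD. Run and injection cannot be told apart within these runs. All LPD c-MET/β-catenin libraries, LPD Vec replicates 2 and 3 and replicate 3 of each CD group lie in the remaining run. A fit with the run as a term therefore takes the CD c-MET/β-catenin level from replicate 3 alone. Values within the run that holds all 4 groups, are given below for the synthetases, and fits with the run as a term for the synthetases and the genes beside them.

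The 5 synthetases whose promoter windows hold the letters TGATGNAA, the core of the C/EBP-ATF response element through which Atf4 acts, are shown because Gars and Yars differed on CD and Tars and Iars by diet in c-MET/β-catenin livers. Windows run from 250 bases before to 50 bases after the RefSeq start site (GRCm38.p6). They were given for 27 of the 37 members, and both strands were searched. The letters were found in 5 of 13 cytosolic and 0 of 14 mitochondrial windows, and in 4.51% of all 27025 genes with a window. No window was given for 10 members, Cars, Vars and Hars2 among them. The stretches below, 1 per gene at the match nearest to the start site, are 30 bases long, 5′ to 3′ on the strand of the gene, with the matched letters in capitals. TGATGNAA reads TTNCATCA where it lies on the opposite strand.
Gars (chr6:55037960-55037989, + strand, first matched base 30 before the start site): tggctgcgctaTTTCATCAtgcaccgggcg
Yars (chr4:129189895-129189924, + strand, first matched base at +4): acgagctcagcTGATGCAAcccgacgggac
Tars (chr15:11399655-11399684, − strand, first matched base 15 before the start site): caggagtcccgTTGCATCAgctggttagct
Iars (chr13:49682126-49682155, + strand, first matched base at +8): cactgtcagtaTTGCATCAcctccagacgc
Aars (chr8:111033840-111033869, + strand, first matched base at +10): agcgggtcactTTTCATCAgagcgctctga
A match is a description of these letters and was not tested as a binding site.

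Most cytosolic enzymes were more abundant per length than most mitochondrial ones, but the classes overlapped. In CD Vec livers, cytosolic mean levels ran from 8.61 CPM per kb of exon for Wars, the tryptophan enzyme, to 54.9 for Nars, the asparagine enzyme. The mitochondrial Fars2 and Iars2, at 17.0 and 14.1, lay above Wars, Cars, Lars, Vars and Iars. Wars was at 19.8, 34.8 and 19.6 CPM in the 3 CD Vec libraries and Nars at 155, 155 and 142. The mitochondrial enzymes ran from 0.957 CPM per kb for Pars2, the proline enzyme, at 3.67, 2.27 and 2.81 CPM, to 17.0 for Fars2, the phenylalanine enzyme, apart from Lars2, the leucine enzyme, at 171.5. Lars2 stood above every other mitochondrial member in each of the 4 groups.

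**Figure D1:**
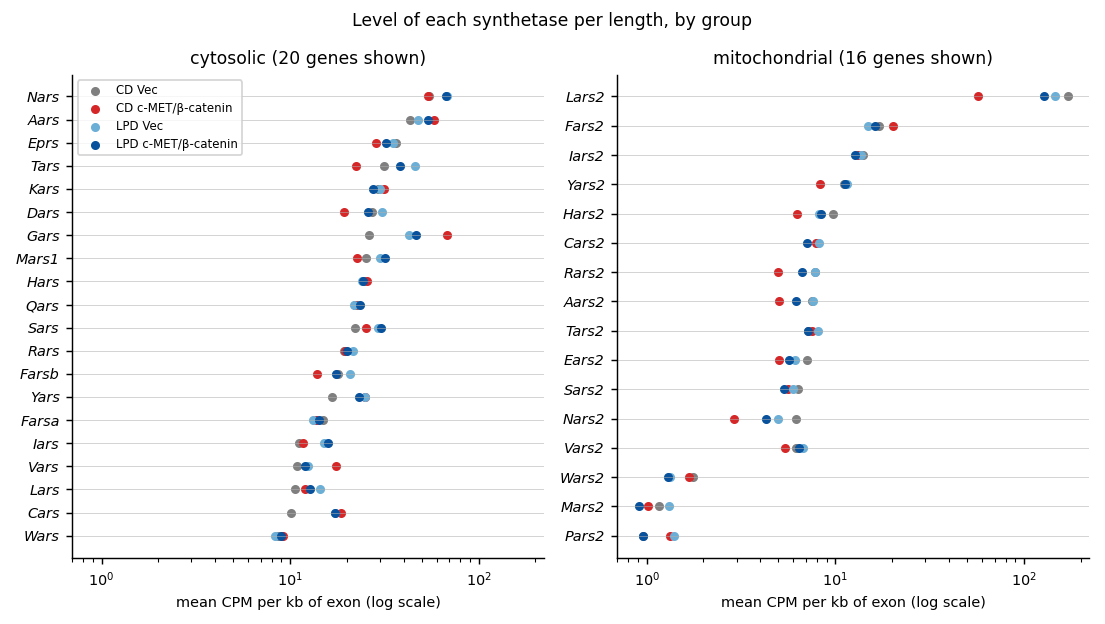
Mean level of each synthetase in each of the 4 groups, in CPM per kb of exon on a log axis, cytosolic enzymes on the left and mitochondrial enzymes on the right, each point the mean of 3 libraries and 1 mitochondrial member not shown. In CD Vec livers the cytosolic means lie between 8.61 and 54.9 and the mitochondrial means between 0.957 and 17.0, with Lars2 apart at 171.5.

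The first comparison asked how the synthetases responded to the oncogenes in livers of mice on CD. Of the 20 cytosolic enzymes, 4 were higher and 2 lower at an adjusted p under 0.05, and of the 17 mitochondrial enzymes 0 were higher and 6 lower (edgeR quasi-likelihood test, Benjamini-Hochberg adjustment over 13947 genes). Over all genes tested, 18.7% were called higher and 16.7% lower. The share of members was 10.8% higher and 21.6% lower, with 20% of cytosolic enzymes higher, which is near the background, and 35.3% of mitochondrial enzymes lower. The median log2 fold change was 0.06 for cytosolic and −0.20 for mitochondrial enzymes, beside −0.01 for all genes.

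Gars, which charges tRNA with glycine, changed most among the cytosolic enzymes. It was at 67.5, 55.2 and 65.2 CPM in CD Vec livers and at 198, 147 and 143 in CD c-MET/β-catenin livers. The groups did not overlap, and the difference was 2.60-fold (log2 fold change 1.38, SE 0.16, edgeR adjusted p = 8.72e-05). Cars, the cysteine enzyme, was at 35.4, 29.3 and 33.4 CPM in Vec and at 54.8, 65.7 and 59.5 with c-MET/β-catenin. This was a log2 fold change of 0.87 (SE 0.14, edgeR adjusted p = 0.000637), again without overlap. Vars, the valine enzyme, rose from 42.7, 49.0 and 43.1 CPM to 71.7, 69.1 and 77.2 (log2 fold change 0.69, SE 0.12, edgeR adjusted p = 0.00114). Yars, the tyrosine enzyme, rose from 46.0, 50.4 and 49.2 CPM to 63.6, 79.35 and 74.05 (log2 fold change 0.57, SE 0.12, edgeR adjusted p = 0.00389). None of the 4 belongs to the multi-synthetase complex, of whose 8 enzymes 0 were called higher and 1 lower.

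The lower cytosolic members were Dars and Farsb. Dars, the aspartate enzyme of the complex, fell from 73.0, 57.2 and 71.0 CPM to 49.05, 40.7 and 52.1 (log2 fold change −0.50, SE 0.12, edgeR adjusted p = 0.00798). Farsb, the β subunit of the phenylalanine enzyme, had a log2 fold change of −0.36 (SE 0.11, edgeR adjusted p = 0.0272), whereas Farsa, the α subunit, was not called at −0.12. The other 14 cytosolic members were not called and ran from −0.50 (Tars, threonine) to 0.41 (Aars, alanine) with all 12 libraries, though some of them were called when 1 library was left out, as given below.

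The lower mitochondrial members charge tRNA with leucine, asparagine, arginine, histidine, alanine and tyrosine. Nars2 was at 23.4, 22.85 and 24.1 CPM in CD Vec livers and at 9.70, 9.62 and 13.6 with c-MET/β-catenin, a 2.14-fold difference (log2 fold change −1.10, SE 0.14, edgeR adjusted p = 0.000169). Hars2 was at 30.9, 36.0 and 31.1 CPM against 17.99, 22.2 and 22.9, a log2 fold change of −0.64 (SE 0.12, edgeR adjusted p = 0.00166). In both genes every c-MET/β-catenin library lay below every Vec library. Rars2 had a log2 fold change of −0.66 (SE 0.14, edgeR adjusted p = 0.00309), at 15.02, 15.6 and 13.2 CPM against 8.92, 9.05 and 9.80. Aars2 had −0.57 (SE 0.11, edgeR adjusted p = 0.00217) and Yars2 −0.42 (SE 0.14, edgeR adjusted p = 0.0385). The other 11 ran from −0.49 to 0.47 and were not called. For tyrosine the cytosolic Yars was called higher and the mitochondrial Yars2 lower, but the Yars2 call was lost in 9 of the 12 fits that left out a library and with the header run as a term (−0.31, edgeR adjusted p = 0.539). For cysteine Cars2 was not called, at −0.03.

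Lars2 had a log2 fold change of −1.58 (SE 0.28, edgeR adjusted p = 0.00121), but its counts followed those of ribosomal RNA. Lars2 was at 531, 887 and 585.5 CPM in CD Vec and at 174, 156 and 338 in CD c-MET/β-catenin livers. Rn45s, the ribosomal RNA precursor that remains after library preparation, was at 11852, 15364 and 11760 CPM and at 3114, 2262 and 6992 CPM in the same libraries (log2 fold change −1.66, SE 0.34, edgeR adjusted p = 0.00272). Over the 12 libraries Lars2 varied 5.67-fold and Rn45s 6.79-fold, while Lars2 stayed at 4.48% to 6.91% of Rn45s. Deviations of the 12 libraries from their group means gave a correlation of 0.93 between Lars2 and Rn45s of 0.83 between Nars2 and Rn45s and of 0.74 between Farsb and Rn45s, beside a median of 0.18 for the members other than Lars2. These libraries share their scaling, and the part of ribosomal RNA in the Lars2, Nars2 and Farsb results was not tested. With the header run as a term the Rn45s differences were no longer called, at −0.91 on CD (edgeR adjusted p = 0.133) and 0.58 by diet in c-MET/β-catenin livers (edgeR adjusted p = 0.322). Both of these values take the CD c-MET/β-catenin level from replicate 3 alone, the highest of its group in Rn45s. Without Lars2, 5 of 16 mitochondrial enzymes were lower on CD.

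**Figure D2:**
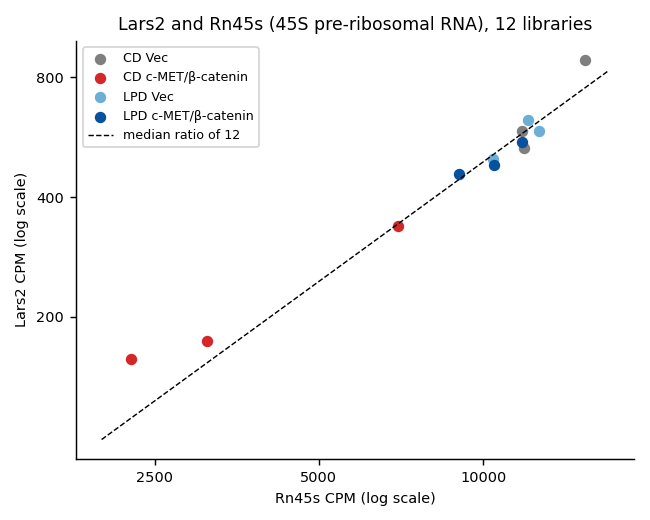
Lars2 against Rn45s, both in CPM on log axes, 1 point per library, with the dashed line at the median ratio of the 12 libraries. The 3 CD c-MET/β-catenin libraries lie lowest on both axes, and Lars2 is 4.48% to 6.91% of Rn45s in all 12.

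When each library was left out in turn, 10 of the 12 members called on CD were called in all 12 fits. The exceptions were Yars2, called in 3 of the 12, and Farsb, called in 9 and lost without CD Vec replicate 1 or without c-MET/β-catenin replicate 1 or 2. Calls were also gained in these fits, for 7 members. Tars was lower without CD Vec replicate 2 (−0.64, edgeR adjusted p = 0.0395) or without CD c-MET/β-catenin replicate 3 (−0.69, edgeR adjusted p = 0.0332), and Ears2 without CD Vec replicate 1 (−0.61) or that same oncogene library (−0.63). Aars was higher without CD c-MET/β-catenin replicate 1 (0.59, edgeR adjusted p = 0.00631) and Wars without CD Vec replicate 2 (0.41). Eprs (−0.48) and Fars2 (0.33) were called without CD Vec replicate 1, and Iars2 (−0.27) without CD Vec replicate 2. Total counts in place of TMM factors shifted the median of all genes by 0.29, moved the share of higher calls among all calls from 52.8% to 78.8%, and gave 9 higher and 0 lower cytosolic enzymes and 3 higher and 3 lower mitochondrial enzymes. With the header run as a term the member calls fell to 2, Gars (log2 fold change 1.11, edgeR adjusted p = 0.0258) and Nars2 (−0.80, edgeR adjusted p = 0.0305), as calls over all genes fell from 4933 to 945. That fit took the CD c-MET/β-catenin level from replicate 3 alone, since replicates 1 and 2 are by themselves in a run. The run that holds all groups has 1 library per CD group, replicate 3 of each. Within it the log2 differences were 1.14 for Gars, 0.83 for Cars, 0.84 for Vars, 0.59 for Yars, −0.83 for Nars2, −0.44 for Hars2 and −0.79 for Lars2. Those of Farsb and Yars2 were less than 0.20 in size, at −0.09 and −0.19. As the CD groups did not overlap for any of the 12 members called, the sign of a difference between single libraries was fixed and adds nothing to these calls.

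**Figure D3:**
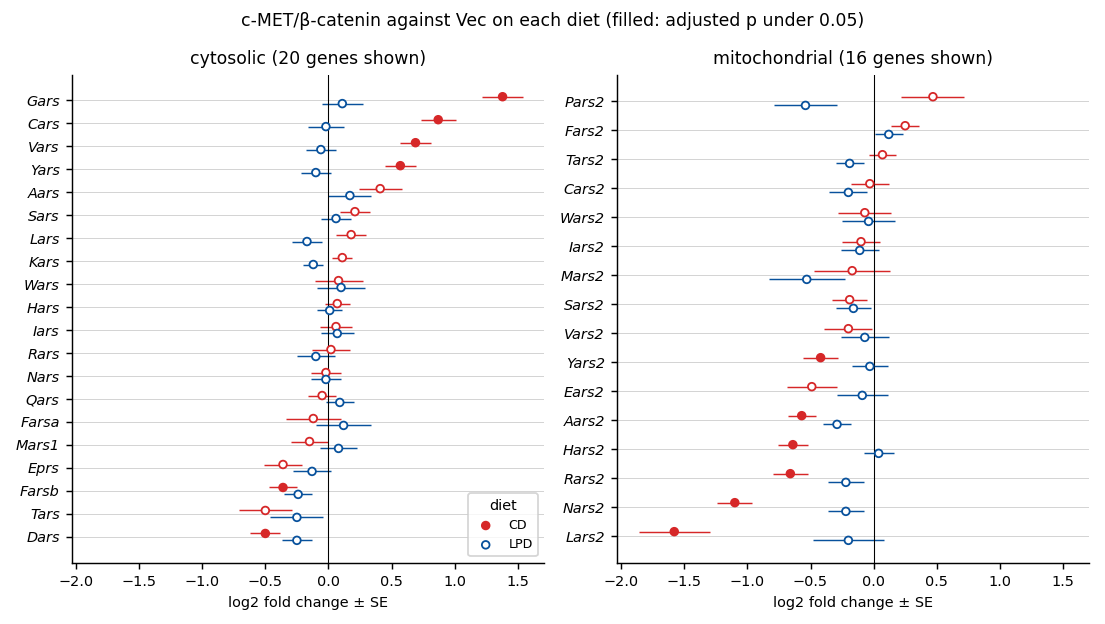
Log2 fold change with the oncogenes, relative to Vec, on CD (red) and on LPD (blue) for each synthetase, with the SE from the edgeR fit as bars and filled points where the adjusted p was under 0.05 and 1 mitochondrial member not shown. Filled points are present on CD for 6 cytosolic and 6 mitochondrial enzymes and absent on LPD.

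The same comparison on LPD gave no synthetase past the threshold. With edgeR 0 of 37 members were called and 1 (Aars2) had an unadjusted p under 0.05, and with DESeq2 0 were called. Over all genes, 1.15% were called higher and 0.165% lower on LPD. Gars was at 95.1, 98.0 and 114 CPM in LPD Vec livers and at 105, 128 and 99.4 in LPD c-MET/β-catenin livers, and the groups overlapped (log2 fold change 0.11, SE 0.16, edgeR adjusted p = 0.893). Cars (−0.02, SE 0.14), Vars (−0.06, SE 0.12) and Yars (−0.10, SE 0.12) also differed by less than their SE. Nars2 was at 18.8, 17.8 and 19.6 CPM against 16.1, 15.85 and 16.4, a log2 fold change of −0.22 (SE 0.14, edgeR adjusted p = 0.662), without overlap of the groups. Hars2 was at 28.1, 27.4 and 26.2 CPM against 28.6, 28.7 and 26.5 (0.04, SE 0.12). Cytosolic members ran from −0.25 to 0.17 and mitochondrial members from −0.54 to 0.12.

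The LPD and CD effects were then compared directly by the interaction of injection and diet, given here as the log2 fold change on LPD minus that on CD. Of the cytosolic enzymes 4 were lower and 0 higher, and of the mitochondrial enzymes 3 were higher and 0 lower (edgeR), beside 4.42% lower and 4.49% higher over all genes. The cytosolic members were Gars (−1.26, SE 0.22, edgeR adjusted p = 0.00822), Cars (−0.89, SE 0.20, edgeR adjusted p = 0.0205), Vars (−0.76, SE 0.17, edgeR adjusted p = 0.0225) and Yars (−0.68, SE 0.18, edgeR adjusted p = 0.0357). The mitochondrial members were Nars2 (0.88, SE 0.20, edgeR adjusted p = 0.0215), Hars2 (0.67, SE 0.17, edgeR adjusted p = 0.0317) and Lars2 (1.38, SE 0.39, edgeR adjusted p = 0.0483), with Rn45s at 1.49 (SE 0.47, edgeR adjusted p = 0.0683). Of the 8 complex enzymes 0 were called for the interaction, and their differences ran from −0.34 to 0.25.

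Only Gars kept its interaction call in all 12 fits that left out a library, with a largest adjusted p of 0.0282 (edgeR) among them. The number of cytosolic calls fell from 4 to 1 without LPD Vec replicate 2, without LPD Vec replicate 3 or with replicate 3 of LPD c-MET/β-catenin left out. Calls over all genes fell from 1243 to 397, 550 and 528 in these fits. The number of mitochondrial calls fell from 3 to 0 without LPD Vec replicate 2 or LPD c-MET/β-catenin replicate 3. It was 1 without LPD Vec replicate 1 or 3 and with replicate 1 or 2 of LPD c-MET/β-catenin left out. Over all genes, 798, 550, 671 and 853 were called in those fits. With the header run as a term 0 members were called for the interaction, as calls over all genes fell from 1243 to 85 (Gars −1.04, edgeR adjusted p = 0.122). Within the shared run the 7 differences were −1.08 for Gars, −0.95 for Cars, −0.96 for Vars, −0.76 for Yars, 0.62 for Nars2, 0.50 for Hars2 and 0.50 for Lars2. Under total counts the share of higher calls over all genes went from 50.4% to 29%, with 4 lower cytosolic enzymes and 1 higher mitochondrial enzyme called.

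**Figure D4:**
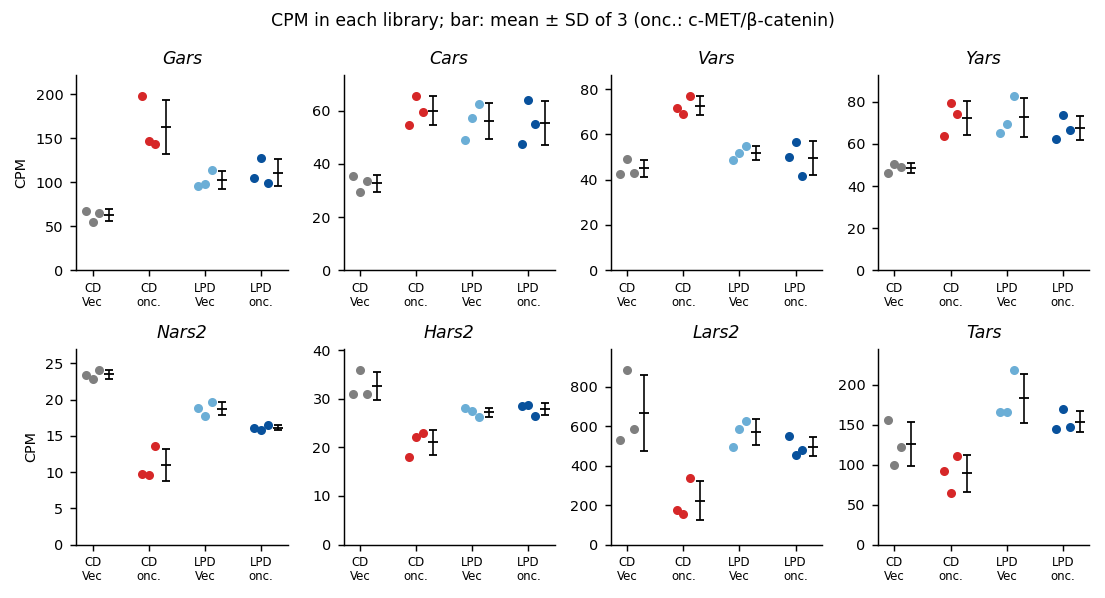
CPM in each library for the 7 synthetases called for the interaction and for Tars, with the mean ± SD of 3 libraries beside each group. Gars, Cars, Vars and Yars are lowest on average in CD Vec livers, Nars2, Hars2 and Lars2 are lowest in CD c-MET/β-catenin livers, and Tars is highest on average in LPD Vec livers.

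Diet was compared next within each injection. These comparisons share libraries with those above, so their values are given side by side and are not independent of them. In Vec livers, LPD against CD, 1 cytosolic member was called higher and 0 members lower, beside 0.186% of all genes higher and 0.122% lower. Cars rose to 48.8, 57.1 and 62.4 CPM on LPD from the CD Vec values above, a 1.71-fold difference (log2 fold change 0.78, SE 0.14, edgeR adjusted p = 0.0442). That call was lost in 6 of the 12 fits that left out a library, those without CD Vec replicate 2 or 3, LPD Vec replicate 2 or 3, CD c-MET/β-catenin replicate 3 or LPD c-MET/β-catenin replicate 3, and also with the replicate number as a block or with the header run as a term. Gars had 0.71 (SE 0.16, edgeR adjusted p = 0.0801) and Yars 0.58 (SE 0.12, edgeR adjusted p = 0.0737), and DESeq2 called both along with Cars. With replicate 1 of CD c-MET/β-catenin left out, edgeR called them too (Gars adjusted p = 0.0344, Yars adjusted p = 0.0439). Yars was at 65.3, 69.5 and 83.0 CPM on LPD, above all 3 CD Vec libraries, as was Gars. Cytosolic members had a median of 0.21 and mitochondrial members of 0.00, beside −0.03 for all genes.

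In c-MET/β-catenin livers, LPD against CD, 4 cytosolic members were higher and 2 lower, and 5 mitochondrial members were higher and 0 lower (edgeR), beside 8.66% of all genes higher and 11.3% lower. Gars (−0.56, SE 0.16, edgeR adjusted p = 0.026) and Vars (−0.55, SE 0.12, edgeR adjusted p = 0.0089) fell. Vars was at 50.2, 56.6 and 41.8 CPM in LPD c-MET/β-catenin livers, overlapping both Vec groups. Cars (−0.11, SE 0.14) and Yars (−0.10, SE 0.12) were not called, with Yars at 62.4, 73.8 and 66.7 CPM.

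The cytosolic members that rose on LPD in c-MET/β-catenin livers were Tars, Mars1, Iars and Dars. Tars, the threonine enzyme, was at 92.1, 64.4 and 110.8 CPM on CD and at 145, 170 and 147.5 on LPD, without overlap (log2 fold change 0.79, SE 0.21, edgeR adjusted p = 0.021). In Vec livers Tars was at 156, 100.1 and 122 CPM on CD and at 165.5, 166 and 219 on LPD (0.54, SE 0.21, edgeR adjusted p = 0.388), and its interaction was 0.25 (SE 0.30). Mars1, Iars and Dars, the methionine, isoleucine and aspartate enzymes of the complex, had log2 fold changes of 0.50, 0.45 and 0.42 (edgeR adjusted p = 0.0359, 0.0303 and 0.0314). Iars was at 47.7, 53.95 and 53.2 CPM on CD and at 66.3, 83.05 and 61.4 on LPD, and in Vec livers it was at 48.2, 52.2 and 47.7 CPM on CD and at 62.4, 63.4 and 75.5 on LPD. Its log2 fold change in Vec livers was 0.44 (SE 0.13, edgeR adjusted p = 0.198) and its interaction 0.00 (SE 0.18), and its diet difference was called in c-MET/β-catenin livers and not in Vec livers.

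The mitochondrial members that rose on LPD in c-MET/β-catenin livers were Lars2, Nars2, Yars2, Rars2 and Hars2. Nars2 was at 16.1, 15.85 and 16.4 CPM, between the CD c-MET/β-catenin and the CD Vec values (log2 fold change 0.56, SE 0.14, edgeR adjusted p = 0.0165). Hars2 (0.41, SE 0.12, edgeR adjusted p = 0.0298), Rars2 (0.43, SE 0.14, edgeR adjusted p = 0.0441) and Yars2 (0.45, SE 0.14, edgeR adjusted p = 0.0477) rose as well. Lars2 was at 550.3, 456 and 481 CPM (1.16, SE 0.28, edgeR adjusted p = 0.0137), with Rn45s at 11769, 9036 and 10484 CPM (1.34, SE 0.33, edgeR adjusted p = 0.0157). Of the 11 calls, those of Vars and Lars2 were made in all 12 fits that left out a library. The total of 6 cytosolic calls ran from 2 to 7 and the total of 5 mitochondrial calls from 1 to 6 in these fits. Farsb was gained without CD Vec replicate 2 (0.33) or CD c-MET/β-catenin replicate 3 (0.46), and Fars2 without CD Vec replicate 1 or 2 (−0.33 in both). With replicate 3 of LPD c-MET/β-catenin left out the totals were 2 and 1, and with replicate 2 of that group left out 2 and 2. They were 3 and 2 with its replicate 1 left out or without CD c-MET/β-catenin replicate 1 or 2, and the mitochondrial total was 3 without CD c-MET/β-catenin replicate 3 or LPD Vec replicate 2 or 3. With the header run as a term 0 members were called here, as calls over all genes fell from 2784 to 618.

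Synthetases were also summed by class. The 12 cytosolic enzymes outside the complex summed to 912 to 957 CPM in CD Vec livers and to 1102 to 1231 in CD c-MET/β-catenin livers, without overlap, and to 1112 to 1302 in LPD Vec and 1118 to 1301 in LPD c-MET/β-catenin livers. The 8 complex enzymes summed to 555.5 to 608 CPM and to 524 to 530 on CD, and to 612 to 685 and 578.5 to 632.5 on LPD, for Vec and c-MET/β-catenin respectively. The 16 mitochondrial enzymes other than Lars2 summed to 346.5 to 377 and 290.1 to 326 CPM on CD and to 346 to 352 and 308 to 331 on LPD. In each of the 3 sums the CD c-MET/β-catenin libraries did not overlap the CD Vec libraries after TMM scaling. Scaled by total counts alone, the complex enzymes turned, since on CD the oncogene libraries, at 567 to 591.5 CPM, lay above the Vec libraries, at 514 to 535, and the mitochondrial sums overlapped, at 314 to 357 and 299 to 348. The sum of the 12 other cytosolic enzymes was higher with c-MET/β-catenin under both scalings, at 1193 to 1347 against 827 to 868 by total counts. Not all of the 12 rose, as 4 were called higher and 1 lower on CD. After TMM scaling, mean CPM on CD rose from 62.6 to 162.7 for Gars and from 250.2 to 333.5 for Aars, which was not called. For Tars, also not called, it went from 126.0 to 89.1. With Lars2 included, the mitochondrial sum was 908 to 1233 CPM in CD Vec and 464 to 664 in CD c-MET/β-catenin livers.

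**Figure D5:**
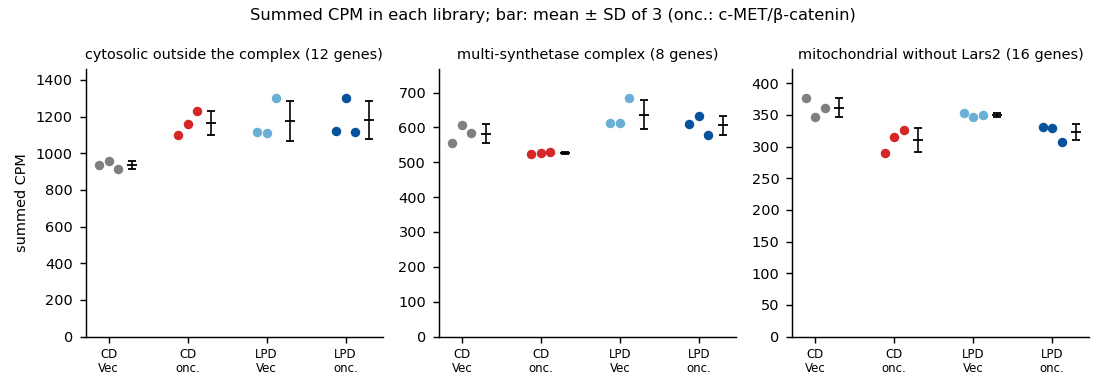
Summed CPM after TMM scaling in each library for 3 groups of synthetases, with the mean ± SD of 3 libraries beside each group. On CD the c-MET/β-catenin libraries lie above Vec for the 12 cytosolic enzymes outside the complex and below Vec for the 8 complex enzymes and the 16 mitochondrial enzymes, whereas by total counts alone the complex enzymes lie above Vec (567 to 591.5 against 514 to 535) and the mitochondrial enzymes overlap.

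Genes that work beside the synthetases were read from lists of fixed membership. The 3 scaffold proteins of the complex (Aimp1, Aimp2 and Eef1e1) gave 0 calls in all 5 contrasts, with 0 at an unadjusted p under 0.05 (edgeR). The 6 cytosolic elongation factors, which bring charged tRNA to the ribosome, also gave 0 calls, with 1 unadjusted p under 0.05 on CD. Of 12 further genes of aminoacyl-tRNA handling, 5 fell and 0 rose on CD. They were led by Gatb (−0.96, edgeR adjusted p = 0.000571), a subunit of the mitochondrial complex that makes glutaminyl-tRNA, by Sepsecs (−0.79, edgeR adjusted p = 0.0131), which makes selenocysteinyl-tRNA, and by Dtd1 (−0.67) and Tarsl2 (−0.57). Gatb (0.56) and Tarsl2 (0.51) rose with LPD in c-MET/β-catenin livers, and Gatb was called for the interaction (0.83, edgeR adjusted p = 0.0351). Once the header run was added, 0 of the 12 were called in any of these contrasts, with Gatb at −0.54 on CD (edgeR adjusted p = 0.138) and at 0.48 for the interaction (edgeR adjusted p = 0.347).

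Mitochondrial translation factors fell on CD as well, where 16.7% of all genes were called lower. By diet in c-MET/β-catenin livers 8.66% of all genes were called higher. Of 9 factors 7 fell and 0 rose on CD, with Gfm2 at −1.03, Mtif2 at −0.94, Mtrf1l at −0.88 and Gfm1 at −0.85 (edgeR adjusted p = 0.000453, 0.000983, 0.0319 and 0.000368), genes for ribosome recycling, initiation, release and elongation. On LPD 0 of the 9 were called between injections. With LPD in c-MET/β-catenin livers 4 of the 9 rose (Mtif2 0.85, Gfm2 0.69, Mtif3 0.64 and Gfm1 0.50), and Mtif2 was called for the interaction (0.81, edgeR adjusted p = 0.0465). Adding the header run left 0 of the 9 called in any contrast, and the edgeR adjusted p on CD was 0.0546 for Gfm2, 0.0848 for Mtif2, 0.691 for Mtrf1l and 0.0884 for Gfm1. Their summed level was 360 to 376 CPM in CD Vec, 204 to 274 in CD c-MET/β-catenin, 354 to 376 in LPD Vec and 316 to 320.0 in LPD c-MET/β-catenin livers.

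Genes of the Atf4 amino acid response were read in the same contrasts. Of 26 listed genes 25 were tested, and on CD 17 rose and 1 fell with c-MET/β-catenin. The serine synthesis genes Phgdh (5.26, SE 0.91) and Psat1 (4.68, SE 0.62) and asparagine synthetase, Asns (3.73, SE 0.62), were among the called genes with the largest log2 fold changes (edgeR adjusted p = 0.00118, 0.000251 and 0.000942). In Vec livers LPD raised 4 of the 25, Asns (4.48, SE 0.63), Psat1 (3.91, SE 0.61), Trib3 (1.97, SE 0.31) and Atf5 (1.53, SE 0.18), with edgeR adjusted p = 0.0227, 0.0262, 0.0262 and 0.00987. Asns was at 0.968, 0.284 and 1.72 CPM in CD Vec, 8.37, 19.2 and 12.65 in CD c-MET/β-catenin, 9.45, 25.3 and 32.55 in LPD Vec and 9.43, 21.2 and 15.3 in LPD c-MET/β-catenin livers. The CD Vec libraries thus lay below all others, as for Gars, Cars and Yars. In c-MET/β-catenin livers LPD raised 1 of the 25, Cebpg (0.64), and lowered 4, Slc7a11 (−1.47), Slc7a5 (−1.11), Pck2 (−0.83) and Ddit4 (−1.92), with edgeR adjusted p = 0.03, 0.0337, 0.0282, 0.0448 and 0.0328. Ddit4 was at 63.1, 14.8 and 15.3 CPM on CD and at 7.77, 9.29 and 7.56 on LPD, with CD c-MET/β-catenin replicate 1 far above the others of its group. On LPD 0 of the 25 were called between injections, and for the interaction 9 were lower and 0 higher, among them Phgdh (−4.56), Psat1 (−4.29) and Asns (−4.28). In the fit with the header run 6 were higher and 1 lower on CD, Asns (2.81, edgeR adjusted p = 0.0307) and Psat1 (3.76, edgeR adjusted p = 0.0246) among the 6 and Phgdh not (edgeR adjusted p = 0.0551). In Vec livers 2 then rose with LPD, Asns (3.98) and Atf5 (1.46), both at an edgeR adjusted p of 0.0426. By diet in c-MET/β-catenin livers 1 was then higher and 0 lower. For the interaction 0 were then called, with edgeR adjusted p = 0.192 for Phgdh, 0.106 for Psat1 and 0.0568 for Asns.

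Atf4 mRNA itself was not called, at 53.1, 88.2 and 43.5 CPM in CD Vec and 92.8, 72.5 and 68.8 in CD c-MET/β-catenin livers (0.34, SE 0.23, edgeR adjusted p = 0.282), with overlapping groups. Among 8 eIF2α kinases and regulators, on CD Eif2ak2 rose (0.75), while Ppp1r15b (−0.74) and Eif2ak1 (−0.29) fell, beside 18.7% of all genes higher and 16.7% lower. Eif2ak1 rose with LPD in c-MET/β-catenin livers (0.39), and none of the 8 was called in the other contrasts. The fit with the header run takes the CD c-MET/β-catenin level from replicate 3 alone. Eif2ak2 was at 37.8 CPM in that library, against 25.1 and 23.9 in replicates 1 and 2. In this fit Eif2ak2 was higher on CD (1.07, edgeR adjusted p = 0.0169). Ppp1r15b (edgeR adjusted p = 0.153) and Eif2ak1 (edgeR adjusted p = 0.655, and 0.329 by diet) were not called, and 1 of the 8 was lower by diet in c-MET/β-catenin livers.

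Markers of proliferation, interferon response and other cell types were read in the same contrasts. Over all genes, 18.7% were called higher and 16.7% lower on CD, and 1.15% higher and 0.165% lower on LPD. By diet in c-MET/β-catenin livers the shares were 8.66% higher and 11.3% lower, and for the interaction 4.49% and 4.42%. All 8 proliferation genes rose on CD, to a sum of 141 to 205 CPM from 4.89 to 15.7, and fell with LPD in c-MET/β-catenin livers, to 18.9 to 56.0. Of 10 interferon-induced genes 8 rose on CD, with sums of 137.8, 213.3 and 707.9 CPM in replicates 1, 2 and 3 against 104 to 146, so that the lowest lay within the Vec range and replicate 3 was far above the others, while Wars, a known interferon target, was not called on CD with all libraries (0.08, SE 0.19) and was called higher without CD Vec replicate 2 (0.41, edgeR adjusted p = 0.0122). Stellate cell and fibroblast markers had 3 of 6 higher and 1 lower on CD, summing to 375, 291 and 63.3 CPM in replicates 1, 2 and 3 against 41.3 to 72.9. Of the macrophage markers 1 of 6 rose, near the share over all genes, with sums of 185 to 332 CPM against 97.75 to 232. Of the T and NK cell markers 2 of 5 rose, summing to 2.95 to 5.28 CPM against 1.53 to 2.45. Both neutrophil markers tested rose, at 4.79 to 12.7 CPM together against 1.19 to 2.29, and 1 of 3 cholangiocyte markers rose, at 7.04 to 8.23 CPM together against 2.44 to 3.49. Of the B cell markers 0 of 4 were called (edgeR, 0 at an unadjusted p under 0.05), and of the endothelial markers 1 of 4 fell. Of hepatocyte markers 1 of 6 rose and 2 fell. On LPD, where 0 synthetases were called between injections, 5 of 8 proliferation and 2 of 10 interferon genes were higher with c-MET/β-catenin and 0 cell type markers were called (edgeR, with 5 of 6 macrophage and 2 of 5 T and NK cell markers at an unadjusted p under 0.05). With LPD in c-MET/β-catenin livers, where 11 synthetases were called, 4 of 10 interferon genes were lower, and the list summed to 131 to 178 CPM. Of the stellate cell markers 3 were then lower and 1 higher, summing to 52.4 to 72.0 CPM, and both neutrophil markers were lower, at 1.30 to 2.23 CPM together. In that contrast 1 macrophage and 1 cholangiocyte marker were lower, 1 endothelial and 1 B cell marker higher, and 1 hepatocyte marker higher and 2 lower. For the interaction both neutrophil markers, 1 stellate cell, 1 cholangiocyte and 1 proliferation gene were lower and 1 endothelial marker higher. In Vec livers diet gave 0 calls in these lists (edgeR), with 1 proliferation gene and 2 B cell markers at an unadjusted p under 0.05. The fit with the header run takes the CD c-MET/β-catenin level from replicate 3 alone, as replicates 1 and 2 are by themselves in a run. That replicate was the one far above the others in interferon genes and within the Vec range for stellate cell markers. In this fit all 8 proliferation and 8 of 10 interferon genes were higher on CD, as were 1 macrophage and 1 cholangiocyte marker. Of the neutrophil, T and NK cell, stellate cell, endothelial and hepatocyte markers 0 were called there. Between injections on LPD the fit gave 1 of 8 proliferation and 0 of 10 interferon genes higher. By diet in c-MET/β-catenin livers that fit gave 7 interferon, 5 proliferation and 1 cholangiocyte gene lower and 1 endothelial marker higher, and for the interaction 3 interferon genes and 1 cholangiocyte marker lower. The part of these cells in the synthetase results was not tested.

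Several members share exon sequence with neighbouring genes, and the strand setting of the counting was not given in the sources used here. On opposite strands Hars and Hars2 overlap by 195 bases, Mars1 and Ddit3 by 68, Iars2 and Rab3gap2 by 2034 and Yars and C77080 by 30. Farsb, Ears2 and Fars2 overlap Sgpp2, Ubfd1 and Lyrm4 by 248, 89 and 115 bases. On the same strand Aars and Exosc6 share 1326 bases. The counts of these genes are uncertain to that extent.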

How the data were processed

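Read counts per gene for 12 mouse livers were used as deposited by the authors, 1 column per library. Per the methods of the study, reads were aligned to mm10 with HISAT2 and counted with featureCounts, whose versions and strand setting were not given in the sources used here. The labels name a ribosomal RNA depletion kit and the methods a stranded mRNA kit, and which was used bears on genes whose counts follow ribosomal RNA. Libraries were assigned by the column names that the labels give, which write HPD for the chow samples.

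Symbols were matched from Entrez identifiers for 25275 of 27179 genes (93.0%). Exon lengths were taken from GENCODE transcripts linked to RefSeq. Counts were fitted with edgeR 4.0.16 in R 4.3.3 (quasi-likelihood test, TMM, filterByExpr, robust), all 12 libraries together. The fit tested 13947 genes and left out 13232, with a biological coefficient of variation of 23.2%. Benjamini-Hochberg adjustment ran over all genes tested, and an adjusted p under 0.05 was called. Members called were named with their values, at most 12 of each class per comparison, and context genes were limited to Atf4 and 4 called genes per list and comparison. P-values measure the spread between mice, 3 per group. The fitting step was tested on simulated counts. Alternatives were DESeq2 1.42.0, other scaling, no filter, fewer groups, a header run term, a replicate block, leaving out each library and, added after seeing the data, leaving out Lars2 and class sums by total counts. Promoter windows came from RefSeq (GRCm38.p6). Members and lists were chosen with earlier results of these data known. The values of 1 mitochondrial member are not reported here, though that member is in all counts.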

Additional observations from a re-analysis of the deposited data

Results flagged for a closer look

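With all 12 libraries, the effect of c-MET/β-catenin differed between the diets for 7 of 37 synthetases by the test of the interaction itself (edgeR quasi-likelihood test, n = 3 per group). Over all genes tested, 4.49% were called higher and 4.42% lower. The log2 fold change on LPD minus that on CD was −1.26 for Gars, −0.89 for Cars, −0.76 for Vars and −0.68 for Yars. It was 0.88 for Nars2, 0.67 for Hars2 and 1.38 for Lars2, whose counts stayed at 4.48% to 6.91% of Rn45s in all 12 libraries. Deviations from group means correlated at 0.83 between Nars2 and Rn45s. Only Gars kept the call in all 12 fits that left out a library, and with the header run as a term 0 of the 7 were called (edgeR adjusted p = 0.122 for Gars).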

How the results depend on the processing

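No named synthetase call turned its direction under any alternative. Over 31 calls and all alternatives, 414 of 582 values kept their call and 168 lost it. The header run term gave 1 cytosolic and 1 mitochondrial call for the oncogene effect on CD and 0 in the other comparisons. For LPD against CD in Vec, the cytosolic count was 3 with DESeq2 and 0 with only the compared groups fitted, the header run term or the replicate block. Calls over all genes there were 43 in the main fit, 339 with DESeq2 and 18, 16 and 16 in the other settings. For LPD against CD in c-MET/β-catenin, cytosolic and mitochondrial counts were 3 and 3 under total counts, 2 and 1 with only the compared groups fitted, and 0 and 0 with the header run term. Over all genes these settings called 2681, 2202 and 618, against 2784 in the main fit. The mitochondrial count for that comparison was 3 without the filter and 3 with the replicate block, with 2578 and 2380 calls over all genes. For the interaction, the mitochondrial count was 1 under total counts, 1 with the replicate block and 0 with the header run term, which also gave 0 cytosolic calls. Interaction calls over all genes were 1271, 812 and 85 in these settings, against 1243 in the main fit. Replicate numbers did not pair the libraries, since deviations of same-numbered libraries correlated at −0.11 to 0.17, and the replicate block changed no other count by over 1.5 times.

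Leaving out 1 library in turn gave 5 to 8 cytosolic and 5 to 8 mitochondrial calls on CD, 0 on LPD, 0 to 3 cytosolic and 0 mitochondrial calls by diet in Vec, 2 to 7 and 1 to 6 by diet in c-MET/β-catenin, and 1 to 4 and 0 to 3 for the interaction. Under total counts, added after seeing the data for sums, the mean summed CPM on CD with c-MET/β-catenin minus that in Vec turned from −55.8 to 54.7 for complex enzymes and from −50.9 to 15.6 for mitochondrial enzymes without Lars2. Uncalled log2 fold changes turned sign on LPD under total counts for Cars (0.09), Vars (0.05) and Yars (0.01). Without 1 library they ran from −0.13 to 0.09 for Cars, −0.17 to 0.04 for Vars, −0.18 to 0.00 for Yars and −0.00 to 0.20 for Gars, and by diet in Vec from −0.36 to 0.02 for Lars2. With 3 mice per group and one harvest, differences near the standard errors given were not detectable.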
